A study of Mus musculus with 7 samples.

Results

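The proteasome genes were taken as every row of the expression table whose symbol begins with Psm, a letter from a to g and a digit, which gave 50 of 24346 genes. Of these, 47 averaged 1 FPKM or more across the 7 animals and were tested, and the other 3 (*Psma8*, *Psmb11* and *Psme2b*) were not. RNA came from whole cerebral cortex of male mice on a C57BL/6J background at postnatal day 100, with 1 library per animal. The 4 CrT-/y animals (the knockouts, replicates 0 to 3) lack exons 5 to 7 of *Slc6a8*, the creatine transporter gene, on their only X chromosome in every cell, and the 3 CrT+/y animals (replicates 1 to 3) are wild-type littermates. The comparison asks how the RNA of the protein-degrading machinery differs in a cortex without creatine transport.

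The proteasome degrades proteins that carry chains of ubiquitin. Its 20S core is a barrel of outer alpha rings, which gate the entry, and inner beta rings, which hold the proteolytic sites. The 19S cap uses ATPases to unfold substrates and non-ATPase subunits to bind ubiquitin and remove it, and other activators such as PA28 can take the place of the cap. Dedicated chaperones assemble both particles, and neurons use the proteasome to renew synaptic proteins and to clear damaged ones.

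With all 7 animals, the share of proteasome genes called was close to that of the table. With limma, 4 of the 47 tested genes (8.51%) had an adjusted p under 0.1, against 10.1% of the 12988 genes tested. The higher ones were *Psmf1*, which encodes the proteasome inhibitor PI31, and *Psme1*, which encodes the alpha subunit of PA28, so that 2 of 47 (4.26%) were called higher against 2.90% of all genes. The lower ones were *Psmd12*, a scaffold subunit of the cap, and *Psmd10*, a chaperone of cap assembly, so that 2 of 47 (4.26%) were called lower against 7.25% of all genes. At an unadjusted p under 0.05 there were 11 proteasome genes (23.4%), 5 higher and 6 lower, against 25.0% of all genes. In 9 proteasome genes (19.1%) the genotypes did not overlap, with 3 above and 6 below the CrT+/y animals, where 21.6% of all genes did not overlap (6.57% above and 15.0% below).

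Fold changes were small. Changes are given as differences between the genotype means of log2(FPKM + 0.1), CrT-/y minus CrT+/y, with their standard error (SE). The median over the 47 genes was 0.06, against -0.03 for all genes tested, and 32 of 47 (68.1%) were above 0 where 41.8% of all genes were. In 36 genes the log2 fold change was under 0.2 in size and in 24 under 0.1. The 95% interval of the fit lay within a 25% rise and the matching fall in 33 of the 47, and the median standard error was 0.06 for proteasome genes and 0.09 for all genes. Summed over the tested genes, the proteasome had 2129 to 2195 FPKM in CrT-/y and 2051 to 2242 FPKM in CrT+/y animals, so the sums overlapped.

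**Figure D1:**
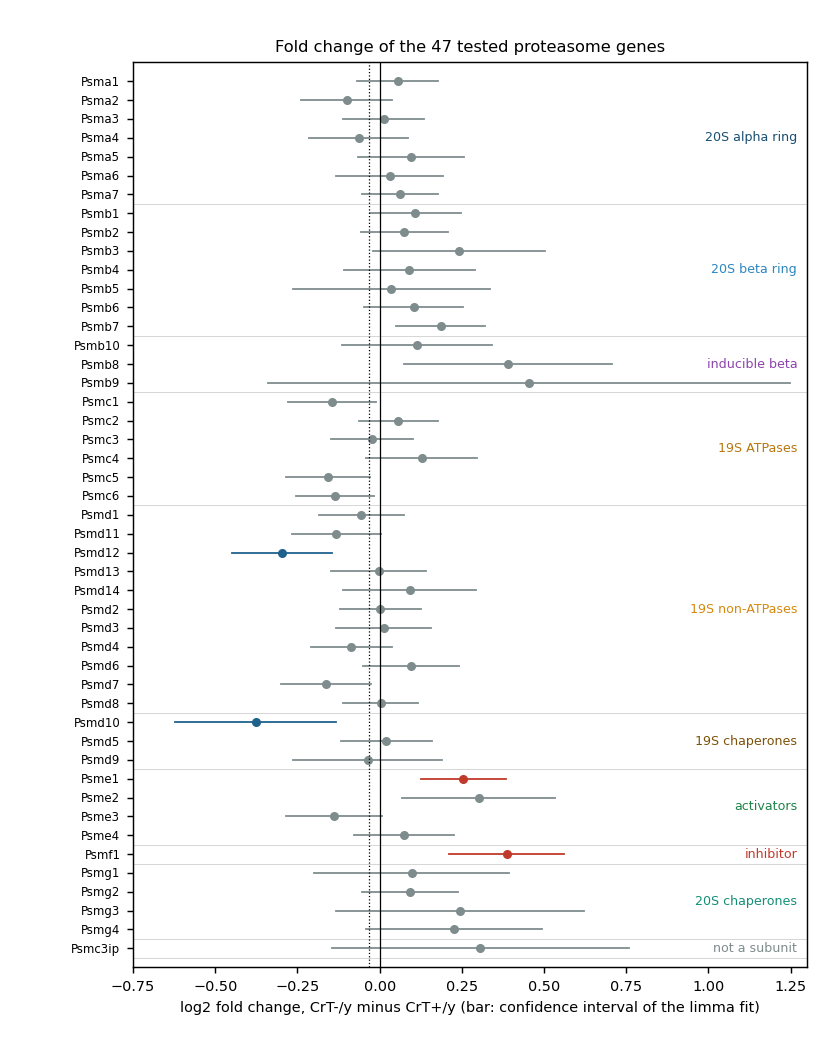
Log2 fold change (CrT-/y minus CrT+/y) of the 47 tested proteasome genes, grouped by role. Points are the limma estimates and bars their 95% intervals. Red marks genes called higher, blue genes called lower, and the dotted line is the median of all genes tested. Most points lie close to 0, with the called *Psmf1* and *Psme1* to the right and *Psmd12* and *Psmd10* to the left. The uncalled *Psmb9* (0.45) and *Psmb8* (0.39) lie right of *Psmf1*, and the uncalled *Psmc3ip* (0.31) and *Psme2* (0.30) right of *Psme1*.

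CrT+/y replicate 3 was the control most like the CrT-/y animals, and calls are given with and without it. Its log2 values correlated with theirs at 0.984 to 0.987, against 0.979 to 0.982 for replicate 1 and 0.979 to 0.985 for replicate 2. It was no outlier among controls by this measure (0.983 and 0.984 with the other 2, which had 0.982 with each other). Calls without CrT+/y replicate 3 show how far counts depend on that animal and are no cleaner result. Its array weight in limma was 0.34, against 0.70 to 1.87 for the other 6 animals. It lay within the range of the CrT-/y animals in 18 of the 47 genes (38.3%), against 41.2% of all genes. Replicate 1 did so in 14 (29.8%, against 30.8%) and replicate 2 in 10 (21.3%, against 33.4%). Replicate 3 was the highest of the 3 controls in 26 of 47 genes, replicate 1 in 18 and replicate 2 in 3, a count not made over all genes. Without CrT+/y replicate 3, 15 proteasome genes (31.9%) were called higher, against 10.3% of all genes, and 7 (14.9%) lower, against 18.4% of all genes. With the trend on transcript length also taken out, 7 (14.9%) were higher and 8 (17.0%) lower, against 12.1% and 12.9% of all genes. Transcripts of the tested proteasome genes had a median of 1440 bases, against 3228 for all genes. After upper quartile scaling of all 7 animals, 4 proteasome genes were higher and 1 lower, against 5.71% and 3.56% of all genes. After quantile normalization the counts were 3 and 1 (4.07% and 4.27% of all genes), and after median centring 3 and 1 (3.77% and 4.06%). With the length trend alone taken out, 1 was higher and 2 lower, against 4.36% and 5.03% of all genes. The 2 lower ones were then *Psmd12* and *Psmc5*, while *Psmd10* lost its call (adjusted p = 0.11 with limma). Leaving out any other single animal left at most 2 proteasome genes called higher and 0 called lower, and calls over all genes fell to between 64 and 753.

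*Slc6a8* checked the labels. It was at 12.4 to 15.7 FPKM in CrT-/y animals and at 28.0 to 32.3 FPKM in CrT+/y animals. Its log2 fold change was -1.05 ± 0.09 (SE; adjusted p = 0.0024 with limma and exact permutation p = 0.0286, two-sided, the smallest that 35 splits allow). Cell type markers differed between animals in several lists. The calls given for these lists stand against 2.90% of all genes called higher and 7.25% called lower. The summed oligodendrocyte markers were at 792 to 1209 FPKM in CrT-/y and 1110 to 1454 FPKM in CrT+/y animals with 0 of 5 called. Olfactory bulb markers were at 5.95 to 16.3 against 2.91 to 5.25 FPKM with 1 of 2 called higher, and choroid plexus and ependymal markers at 12 to 57.7 against 10.1 to 401 FPKM with 1 of 7 called higher. Endothelial markers were at 60.2 to 75.4 against 73.1 to 83.7 FPKM with 2 of 5 called lower, and striatal markers at 132 to 327 against 75.2 to 284 FPKM with 0 of 6 called. Cortical neuron markers were present in every animal, at 1503 to 1640 against 1574 to 1728 FPKM with 1 of 10 called higher and 2 lower, and no marker of any list was at 0 in any animal. The part of these differences in the results below was not tested, and in bulk tissue fewer cells of a type and less RNA per cell cannot be told apart.

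The promoters of the 4 called genes are shown because proteasome genes are known to be transcribed together, through shared promoter elements. The sequences are from RefSeq on GRCm38.p6 and run 5′ to 3′ on the strand of the gene, and each is the longest stretch of the 250 bases before the RefSeq start that no annotated exon covers. Capitals mark matches on either strand to TGACNNNGC (the type of element bound by Nfe2l1), CCAAT (bound by NF-Y), CCGGAAG (bound by ETS factors) or the interferon response element core (GAAA, 2 bases of any kind, then GAAA). The stretches lie at chr11:107479278-107479483 on the plus strand for *Psmd12*, chrX:140956729-140956906 on the minus strand for *Psmd10*, chr14:55578249-55578359 on the plus strand for *Psme1* and chr2:151741311-151741560 on the minus strand for *Psmf1*.
Psmd12: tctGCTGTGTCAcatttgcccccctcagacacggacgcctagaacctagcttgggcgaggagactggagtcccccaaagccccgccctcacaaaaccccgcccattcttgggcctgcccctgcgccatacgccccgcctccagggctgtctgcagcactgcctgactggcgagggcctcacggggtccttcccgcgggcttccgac
Psmd10: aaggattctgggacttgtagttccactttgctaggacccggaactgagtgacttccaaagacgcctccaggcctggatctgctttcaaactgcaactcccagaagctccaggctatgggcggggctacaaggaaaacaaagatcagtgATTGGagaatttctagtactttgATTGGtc
Psme1: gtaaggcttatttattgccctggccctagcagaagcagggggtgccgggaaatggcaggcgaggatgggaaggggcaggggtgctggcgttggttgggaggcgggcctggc
Psmf1: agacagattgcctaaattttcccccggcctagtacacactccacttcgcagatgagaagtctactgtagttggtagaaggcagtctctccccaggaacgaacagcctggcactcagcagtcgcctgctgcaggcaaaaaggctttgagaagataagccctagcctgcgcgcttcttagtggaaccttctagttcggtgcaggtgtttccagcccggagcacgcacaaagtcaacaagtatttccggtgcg

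Of the 50 genes, 42 had a promoter in the RefSeq table. Over the full 250 bases, *Psmd12* held 1 match to TGACNNNGC that begins 247 bases before the start and 1 to CCGGAAG that begins 17 bases before it, the latter in bases not printed. *Psmd10* held 3 matches to CCAAT at 230, 47 and 24 bases before the start, the first of them not printed, and *Atg4a* begins on the other strand within this window. The windows of *Psme1* and *Psmf1* held no match to these letters. Both lie inside the span that GENCODE gives the gene, since its outermost start is upstream of the RefSeq start, so they do not cover the promoter of that outer start. TGACNNNGC was in 5 of the 42 promoters (11.9%: *Psmb5*, *Psmb6*, *Psmc6*, *Psmd9* and *Psmd12*) and in 11.5% of 27025 genes with promoters, and CCAAT in 15 (35.7%) against 37.5%. CCGGAAG was in 13 of the 42 (31.0%) against 7.83% of all, among them the cap ATPases *Psmc1*, *Psmc2* and *Psmc6*. The interferon response element core was in 3 (7.14%: *Psmb3*, *Psmd4* and *Psmd9*) against 3.46%. The 4 motifs were chosen with the expression values known, and a match is not a binding site shown to be used in cortex.

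Most helpers of the proteasome were at lower levels than the constitutive particle, with *Psme3* within its range. FPKM are divided by transcript length, so levels of different genes can be set side by side. The 14 constitutive genes of the core had means between 39.2 and 105 FPKM over the 7 animals, the 6 ATPases between 42.6 and 92.7 FPKM and the 11 non-ATPases between 33.1 and 80.9 FPKM. The activators lay between 11.7 and 48.1 FPKM, the inhibitor at 11.0 FPKM, the chaperones of the cap between 8.45 and 21.4 FPKM and those of the core between 6.60 and 13.4 FPKM. The inducible catalytic subunits lay between 1.46 and 14.4 FPKM. The 3 untested genes are known from other tissues, and *Psma8* (testis) was at 0.126 to 0.307 FPKM, *Psmb11* (thymus) at 0.0175 to 0.0564 FPKM and *Psme2b*, a near copy of *Psme2*, at 0.357 to 0.624 FPKM.

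**Figure D2:**
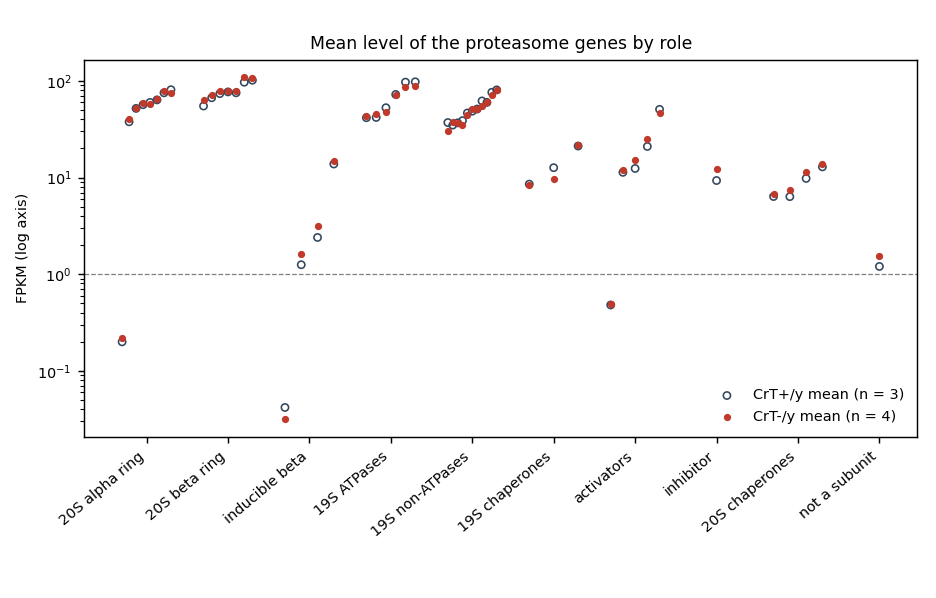
Mean FPKM (log axis) of each of the 50 genes in CrT+/y (open circles, n = 3) and CrT-/y animals (filled circles, n = 4), by role. The dashed line marks 1 FPKM; the points of the core and the cap lie between 30.1 FPKM (*Psmd12*, CrT-/y) and 110.1 FPKM (*Psmb7*, CrT-/y), while *Psma8*, *Psmb11* and *Psme2b* lie under the line.

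The alpha ring, whose subunits gate the core, showed no call among its 7 tested genes, with log2 fold changes from -0.10 to 0.09 and a median of 0.03. *Psma2* had the smallest p and the highest level of the ring. It was at 77.5, 76.7, 78.3 and 70.3 FPKM in CrT-/y replicates 0 to 3 and at 82.3, 76.1 and 85.1 FPKM in CrT+/y replicates 1 to 3, and the genotypes overlapped (log2 fold change -0.10, SE 0.06, adjusted p = 0.34 with limma). *Psma5*, the lowest tested gene of the ring, was at 39.3, 41.7, 41.2 and 38.7 FPKM against 36.4, 34.8 and 42.2 FPKM (0.09, SE 0.07, adjusted p = 0.44 with limma). CrT+/y replicate 3 was above all CrT-/y animals in *Psma5* while the other controls were below them, and without it *Psma5* was called higher (0.18, adjusted p = 0.053 with limma). This call did not hold once the length trend was also taken out (0.10, adjusted p = 0.22 with limma).

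In the constitutive beta ring, which holds the proteolytic sites, all 7 genes had fold changes above 0, from 0.04 to 0.24 with a median of 0.10, and 0 of 7 were called. With the length trend taken out their median was 0.05, and *Psmb5* (-0.03) and *Psmb2* (-0.00029) were below 0. *Psmb7*, the trypsin-like site, was at 109, 114, 107 and 110 FPKM in CrT-/y replicates 0 to 3 and at 94.3, 91.6 and 105 FPKM in CrT+/y replicates 1 to 3. Every CrT-/y animal was above every control, and the mean was 114% of the CrT+/y mean (log2 fold change 0.19, SE 0.06), with an adjusted p of 0.11 with limma. *Psmb3*, a structural subunit of the ring, was at 59.9, 67.9, 63.1 and 66.0 FPKM against 50.2, 46.8 and 68.0 FPKM (0.24, SE 0.12, adjusted p = 0.23 with limma). Its first 2 controls were below all CrT-/y animals and the third was above them. *Psmb4*, the gene of highest mean level among all 50, was at 105, 108, 113 and 104 FPKM against 97.9, 89.3 and 118 FPKM, with the same order of the controls. *Psmb5*, the chymotrypsin-like site and the main target of proteasome inhibitor drugs, had the widest control range of the ring, with 75.2, 69.8, 79.3 and 87.5 FPKM against 65.8, 68.1 and 97.2 FPKM (0.04, SE 0.13, adjusted p = 0.89 with limma). Without CrT+/y replicate 3, 5 of the 7 beta genes (*Psmb1*, *Psmb3*, *Psmb4*, *Psmb6* and *Psmb7*) were called higher with log2 fold changes from 0.17 to 0.40, and 3 of the 7 once the length trend was also taken out. Of all genes, 10.3% and 12.1% were called higher in these settings. *Nek6* overlaps exons of *Psmb7* on the other strand, and the sources used here do not state whether counting used strand.

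The inducible subunits *Psmb8*, *Psmb9* and *Psmb10* replace the constitutive sites when cells meet interferon, and the resulting immunoproteasome makes peptides for antigen presentation. *Psmb8* was at 2.64, 3.78, 3.27 and 3.01 FPKM in CrT-/y and at 2.48, 2.06 and 2.65 FPKM in CrT+/y animals (log2 fold change 0.39, SE 0.14, adjusted p = 0.13 with limma). The CrT-/y values were above the controls except that replicate 0 was just under CrT+/y replicate 3. *Psmb9* was at 1.07, 2.10, 1.71 and 1.56 against 2.07, 0.615 and 1.06 FPKM, a spread wide enough that its estimate of 0.45 had a standard error of 0.35 (adjusted p = 0.45 with limma). *Psmb10* was at 15.0, 14.8, 14.2 and 15.2 against 13.7, 11.5 and 16.2 FPKM, and its genotypes overlapped. Without CrT+/y replicate 3, *Psmb8* (0.46, adjusted p = 0.075 with limma) and *Psmb10* (0.23, adjusted p = 0.068 with limma) were called higher. *Psmb9* was not (0.42, adjusted p = 0.52 with limma). With the length trend also taken out, 1 of the 3 was called higher. Of all genes, 10.3% and 12.1% were called higher in these settings. The summed inducible subunits came to 7.32% to 8.09% of the summed *Psmb5*, *Psmb6* and *Psmb7* in CrT-/y and 6.35% to 8.20% in CrT+/y animals. *Tap1* shares exon sequence with *Psmb9*, and an antisense gene with *Psmb8*, on the opposite strands. Microglia, the resident immune cells of the brain, had summed markers at 182 to 193 FPKM in CrT-/y and 180 to 195 FPKM in CrT+/y animals, with 0 of 7 called.

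Among the 6 ATPases of the cap, which form the ring that unfolds substrates, 4 fold changes were below 0 and 2 above, with a median of -0.08 and 0 called. *Psmc5* was at 89.4, 88.5, 83.8 and 86.8 FPKM in CrT-/y replicates 0 to 3 and at 103, 91.4 and 97.3 FPKM in CrT+/y replicates 1 to 3 (log2 fold change -0.16, SE 0.06, adjusted p = 0.14 with limma). With the length trend taken out it was called lower (-0.18, adjusted p = 0.095 with limma), as were 5.03% of all genes. *Psmc6* was at 49.8, 47.2, 49.0 and 46.3 against 54.8, 53.0 and 50.7 FPKM (-0.14, SE 0.05, adjusted p = 0.16 with limma). *Psmc1*, the ATPase of highest level, was at 93.8, 84.1, 90.2 and 86.5 against 104, 95.0 and 95.1 FPKM (-0.14, SE 0.06, adjusted p = 0.18 with limma). In these 3 genes every CrT-/y animal was below every control, as in 15.0% of all genes. *Psmc4* leaned the other way, at 43.8, 47.4, 44.2 and 47.0 against 39.6, 38.8 and 47.3 FPKM, and *Psmc2*, the ATPase of lowest level, was at 43.4, 42.4, 45.3 and 42.2 against 42.2, 39.7 and 43.0 FPKM. Both overlapped between genotypes. Without CrT+/y replicate 3, *Psmc4* was called higher and *Psmc1* and *Psmc6* lower, where 10.3% of all genes were higher and 18.4% lower. With the length trend also taken out, 1 of the 6 ATPases was higher and 3 lower, against 12.1% and 12.9% of all genes.

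The 11 non-ATPase subunits of the cap had a median log2 fold change of -0.0035, with 5 above and 6 below 0, and 1 was called. The median was above 0 after upper quartile scaling (0.06), quantile normalization (0.04), median centring (0.03) and removal of the length trend (0.01). *Psmd12* (Rpn5), a scaffold subunit of the lid that packs around the ubiquitin-removing enzyme, lies on chromosome 11 of GRCm38 from 107479484 to 107504362 on the plus strand, with 11 exons. It was at 29.8, 29.7, 30.1 and 30.6 FPKM in CrT-/y replicates 0 to 3 and at 40.6, 37.2 and 33.5 FPKM in CrT+/y replicates 1 to 3. The CrT-/y animals lay within 1 FPKM of each other, all below the lowest control, and the mean of 30.1 ± 0.403 FPKM (SD, n = 4) was 81.0% of the CrT+/y mean of 37.1 ± 3.58 FPKM (SD, n = 3). In limma the log2 fold change was -0.30 ± 0.07 (SE), with an adjusted p of 0.052. The call was lost without any single animal other than CrT+/y replicate 3 (adjusted p from 0.10 to 0.15 with limma), and without that replicate the log2 fold change was -0.37 (adjusted p = 0.0063 with limma).

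*Psmd7* (Rpn8), the partner of the ubiquitin-removing enzyme, was at 55.0, 56.4, 56.7 and 53.2 FPKM in CrT-/y and at 67.3, 60.9 and 58.2 FPKM in CrT+/y animals. Every CrT-/y animal was below every control, with a log2 fold change of -0.16 (SE 0.06, adjusted p = 0.14 with limma). The enzyme itself, *Psmd14* (Rpn11), was at 54.3, 49.0, 55.1 and 48.0 against 43.8, 46.4 and 55.7 FPKM, and overlapped. *Psmd2* (Rpn1), the subunit of highest level in this group and a dock for ubiquitin-like domains, was at 77.2, 83.1, 83.5 and 79.8 against 78.1, 79.4 and 85.0 FPKM (0.0016, SE 0.05). The ubiquitin receptor *Psmd4* (Rpn10) had a log2 fold change of -0.09 (SE 0.06), and the scaffolds *Psmd1*, *Psmd3*, *Psmd8* and *Psmd13* had -0.06, 0.01, 0.0029 and -0.0035. Without CrT+/y replicate 3, *Psmd7*, *Psmd11* and *Psmd12* were called lower and *Psmd6* and *Psmd14* higher, where 18.4% of all genes were lower and 10.3% higher. With the length trend also taken out, 3 of the 11 non-ATPases were lower and 0 higher, against 12.9% and 12.1% of all genes.

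The cap has its own assembly chaperones, and *Psmd10* (gankyrin) was lower in CrT-/y animals. *Psmd10* lies on chromosome X from 140948429 to 140956728 on the minus strand, with 5 exons. It was at 9.21, 9.51, 9.78 and 9.97 FPKM in CrT-/y replicates 0 to 3 and at 13.9, 13.9 and 10.1 FPKM in CrT+/y replicates 1 to 3. The CrT-/y animals were close together and below all controls, but CrT+/y replicate 3 was nearer to them than to the other controls. The mean of 9.62 ± 0.331 FPKM (SD, n = 4) was 76.0% of the CrT+/y mean of 12.7 ± 2.18 FPKM (SD, n = 3), with a log2 fold change of -0.38 (SE 0.11, adjusted p = 0.084 with limma). Its call was lost under 15 of 21 alternatives, with log2 fold changes of -0.39 to -0.30, and without CrT+/y replicate 3 the log2 fold change was -0.53 (adjusted p = 0.0036 with limma). *Psmd9* was at 9.11, 7.27, 9.42 and 7.68 against 8.36, 8.22 and 9.07 FPKM (-0.04, SE 0.10), a fold change whose sign turned under 6 alternatives. *Psmd5* was at 22.1, 21.5, 21.9 and 20.5 against 19.7, 21.7 and 22.3 FPKM, and the genotypes overlapped in both genes.

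**Figure D3:**
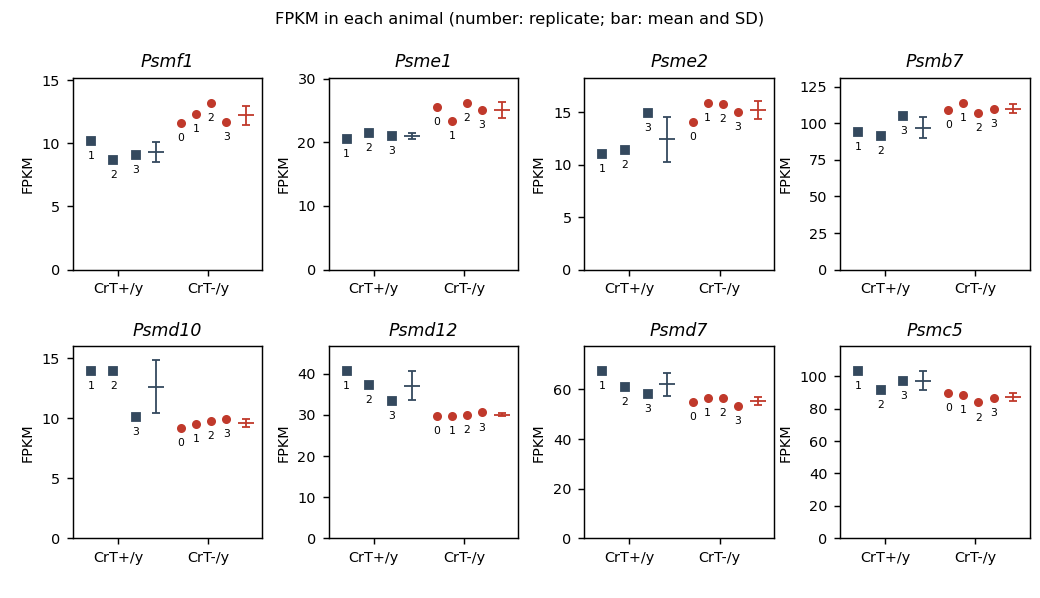
FPKM of 8 proteasome genes in each animal, CrT+/y as squares (n = 3) and CrT-/y as circles (n = 4), numbered by replicate, with the mean and SD beside them. *Psmf1*, *Psme1* and *Psmb7* lie above the controls in every CrT-/y animal and *Psmd10*, *Psmd12*, *Psmd7* and *Psmc5* below them, while CrT+/y replicate 3 of *Psme2*, at 14.9 FPKM, lies among the CrT-/y animals.

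Among the activators, the PA28 alpha and beta genes were higher by value in CrT-/y animals, and 1 of the 2 was called. PA28 binds the ends of the core in place of the cap and opens its gate without ATP. *Psme1* (PA28 alpha) lies on chromosome 14 from 55578123 to 55581529 on the plus strand, with 11 exons. It was at 25.6, 23.3, 26.2 and 25.1 FPKM in CrT-/y replicates 0 to 3 and at 20.5, 21.5 and 21.0 FPKM in CrT+/y replicates 1 to 3. Every CrT-/y animal was above every control, and the mean of 25.1 ± 1.22 FPKM (SD, n = 4) was 119% of the CrT+/y mean of 21.0 ± 0.501 FPKM (SD, n = 3). In limma the log2 fold change was 0.25 ± 0.06 (SE), with an adjusted p of 0.051. The 3 controls lay close together, and without CrT+/y replicate 3 the log2 fold change was 0.26, or 0.16 with the length trend also taken out (adjusted p = 0.12 with limma). The call was lost under 9 of 21 alternatives, among them without any 1 of the 4 CrT-/y animals or CrT+/y replicate 1 (adjusted p from 0.11 to 0.14 with limma) and after taking out the length trend (0.21, adjusted p = 0.10 with limma). *Emc9* overlaps exons of *Psme1* on the other strand.

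*Psme2* (PA28 beta), which pairs with the alpha subunit, was at 14.1, 15.9, 15.8 and 15.0 FPKM in CrT-/y and at 11.0, 11.4 and 14.9 FPKM in CrT+/y animals. CrT+/y replicate 3 alone lay within the CrT-/y range, and the log2 fold change was 0.30 (SE 0.10, adjusted p = 0.12 with limma) with it and 0.44 (adjusted p = 0.0070 with limma) without it. Together *Psme1* and *Psme2* came to 3.91%, 3.84%, 4.07% and 3.98% of the summed FPKM of the core in CrT-/y replicates 0 to 3 and to 3.29%, 3.61% and 3.40% in CrT+/y replicates 1 to 3. This share did not overlap between genotypes, and CrT+/y replicate 3 lay between the other controls. *Psme3* (PA28 gamma), a nuclear activator and the most abundant of the group, was at 48.4, 46.1, 47.3 and 42.7 against 54.5, 49.7 and 48.1 FPKM (-0.14, SE 0.06, adjusted p = 0.22 with limma). *Psme4* (PA200), also nuclear, was at 11.5, 11.8, 12 and 12.3 against 11.6, 12 and 10.4 FPKM (0.07, SE 0.07, adjusted p = 0.53 with limma).

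*Psmf1* had the smallest p of the 47 genes. It encodes PI31, first described as an inhibitor of the core and later as an adaptor that links proteasomes to the motors of axonal transport. It lies on chromosome 2 from 151715812 to 151744186 on the minus strand, with 7 exons. It was at 11.6, 12.3, 13.2 and 11.7 FPKM in CrT-/y replicates 0 to 3 and at 10.2, 8.65 and 9.10 FPKM in CrT+/y replicates 1 to 3. Every CrT-/y animal was above every control, and the mean of 12.2 ± 0.753 FPKM (SD, n = 4) was 131% of the CrT+/y mean of 9.32 ± 0.795 FPKM (SD, n = 3). In limma the log2 fold change was 0.39 ± 0.08 (SE), with an adjusted p of 0.039. Across the 21 alternatives it ran from 0.34 to 0.46 and the call was lost under 2, without CrT-/y replicate 1 (adjusted p = 0.13 with limma) or replicate 2 (adjusted p = 0.11 with limma). It was 0.37 without CrT+/y replicate 3.

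The 4 chaperones that assemble the core (*Psmg1* to *Psmg4*) had fold changes above 0, from 0.09 to 0.24, and 0 were called. *Psmg4* was at 13.1, 11.0, 10.4 and 11.1 FPKM in CrT-/y and at 9.55, 8.23 and 11.6 FPKM in CrT+/y animals (log2 fold change 0.23, SE 0.12, adjusted p = 0.27 with limma). *Psmg3*, its partner in the same heterodimer, was at 5.82, 8.49, 7.94 and 7.63 against 4.87, 6.38 and 7.78 FPKM (0.24, SE 0.17, adjusted p = 0.39 with limma). The genotypes overlapped in both, and without CrT+/y replicate 3 *Psmg4* was called (0.35, adjusted p = 0.051 with limma). That call was lost once the length trend was also taken out (0.12, adjusted p = 0.44 with limma). *Psmg2*, the highest of the 4, was at 14.3, 14.2, 13.4 and 13.1 against 13.6, 12.1 and 13.1 FPKM, and *Psmg1*, the lowest tested on mean level, at 6.44, 5.90, 6.82 and 7.98 against 6.41, 5.25 and 7.41 FPKM. *Psmc3ip* matches the symbol pattern but encodes a partner in meiotic recombination and no subunit, and it was at 1.40, 1.41, 2.20 and 1.19 against 1.24, 1.24 and 1.13 FPKM (0.31, SE 0.20, adjusted p = 0.37 with limma).

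**Figure D4:**
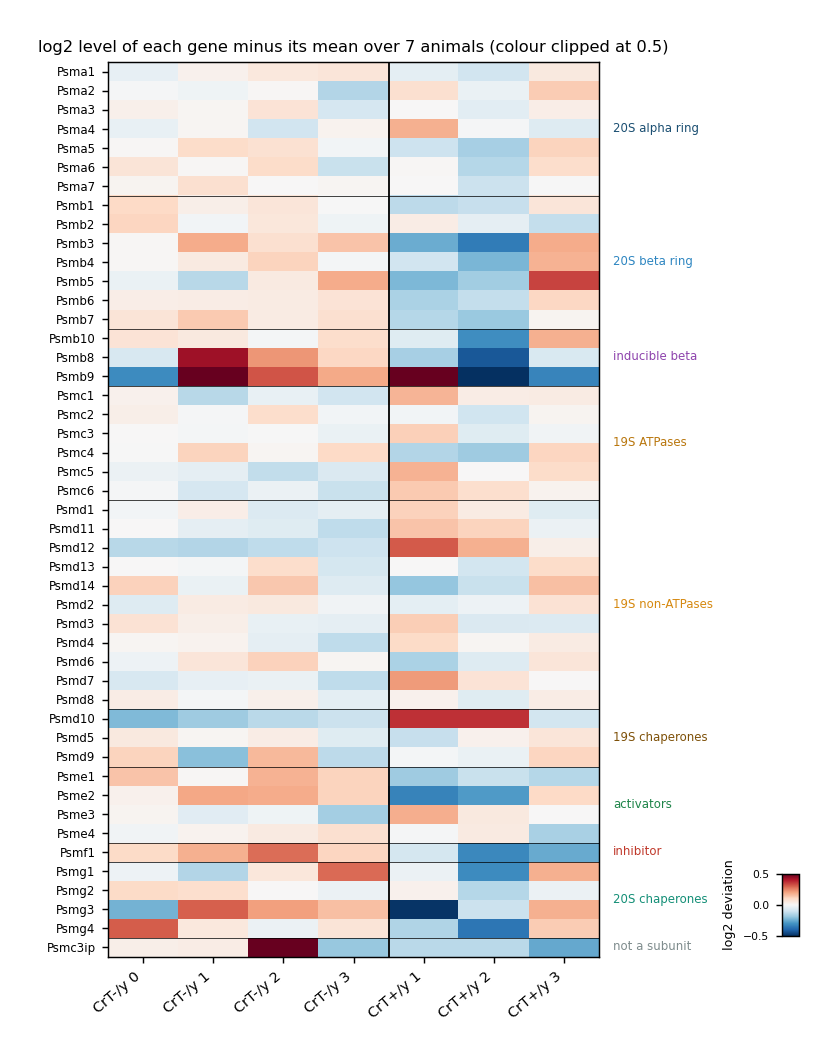
Level of each tested proteasome gene in each animal, as log2(FPKM + 0.1) minus the gene's mean over the 7 animals, with colour limited to 0.5 either way. In *Psmb3*, *Psmb4*, *Psmb5* and *Psmb6* CrT+/y replicate 3 is red where the other controls are blue, and *Psmd10* is red in CrT+/y replicates 1 and 2 alone.

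The balance of cap to core also differed among controls. The summed FPKM of the 17 cap genes over that of the 14 core genes was 0.939, 0.923, 0.921 and 0.907 in CrT-/y replicates 0 to 3 and 1.05, 1.04 and 0.927 in CrT+/y replicates 1 to 3. The first 2 controls were above all CrT-/y animals, and replicate 3 lay among them. In the core, 12 of 14 fold changes were above 0 with a median of 0.07, and in the cap 7 of 17 with a median of -0.02. This difference between particles was not tested. The cap median was above 0 after upper quartile scaling (0.04), quantile normalization (0.04) and median centring (0.01), while the core median was above 0 under each of them. Core transcripts had a median of 1162 bases and cap transcripts 1904. With the length trend taken out, the core median was 0.02 and the cap median -0.02.

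**Figure D5:**
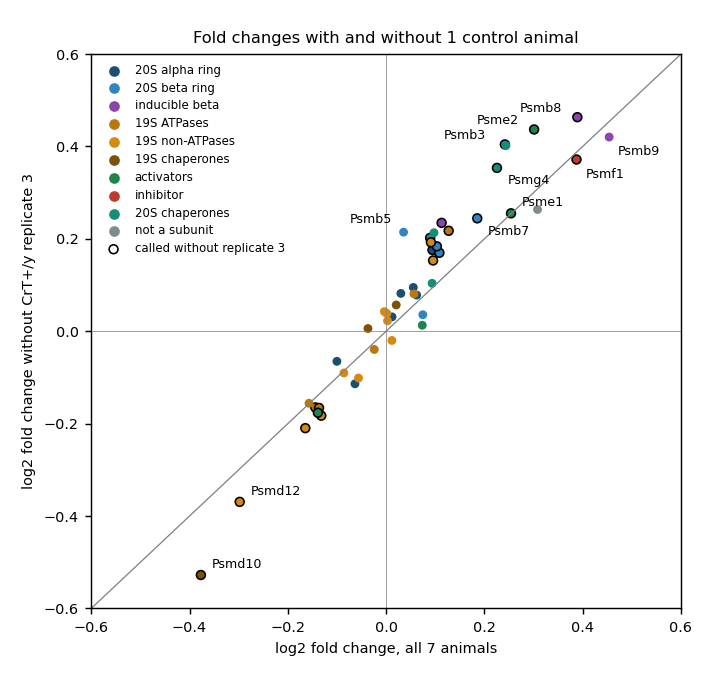
Log2 fold change of each tested proteasome gene with all 7 animals (x axis) and without CrT+/y replicate 3 (y axis), coloured by role, with a black ring around genes called without it and a line at equal values. *Psmb3*, *Psmb5*, *Psmg4* and *Psme2* lie above the line, *Psmd10* and *Psmd12* lie below it, and *Psme1* and *Psmf1* lie close to it.

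Genes around the proteasome were described by 5 lists. The other subunits and assembly factors (*Adrm1*, *Shfm1*, *Pomp* and *Akirin2*) had 0 of 4 called, and *Akirin2*, which carries proteasomes into the nucleus, had the smallest p of them (0.06, SE 0.05, adjusted p = 0.52 with limma). Among 15 deubiquitinases, ligases and shuttles that meet the proteasome, 0 were higher and 2 lower, against 2.90% and 7.25% of all genes. The shuttle *Ubqln4*, which carries ubiquitinated proteins to the cap, averaged 45.3 ± 2.11 FPKM over the knockouts (SD, n = 4) and 58.6 ± 4.64 FPKM over the controls (SD, n = 3), a log2 fold change of -0.37 (SE 0.07, adjusted p = 0.032 with limma). *Ubqln1*, of the same family, was at 64.5 ± 2.04 against 73.1 ± 1.02 FPKM (-0.18, SE 0.05, adjusted p = 0.072 with limma). *Ubqln2*, the third one listed, was at 78.9 to 85.4 FPKM in CrT-/y and 85.8 to 92.4 FPKM in CrT+/y animals (-0.12, adjusted p = 0.19 with limma). In these 3 ubiquilins every CrT-/y animal was below every control, as in 15.0% of all genes. The same held in *Uchl5* (-0.28, adjusted p = 0.12 with limma) and *Ube3c* (-0.12, adjusted p = 0.22 with limma), while *Zfand2a* was above every control. In this list 6 of 15 genes did not overlap between genotypes, against 21.6% of all genes. Fold changes were above 0 in 2 of the 15, against 41.8% of all genes. With the length trend taken out, *Ubqln4* kept its call (-0.33, adjusted p = 0.036 with limma) and *Ubqln1* lost it (-0.13, adjusted p = 0.12 with limma). *Ubqln2* was then at -0.08 (adjusted p = 0.35 with limma).

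The list around Nfe2l1, the factor that raises transcription of proteasome genes when proteasomes are short, had 1 of 9 called lower, against 7.25% of all genes. *Nfe2l1* itself was at 93.0 to 98.6 FPKM in CrT-/y and 98.6 to 103 FPKM in CrT+/y animals, and the ranges touched (-0.07, SE 0.05, adjusted p = 0.39 with limma). The called gene was *Sel1l*, an adaptor of protein disposal from the endoplasmic reticulum, at 41.0 FPKM against 49.3 FPKM in mean (-0.27, SE 0.05, adjusted p = 0.041 with limma). Ubiquitin and its activating enzymes had 0 of 6 called, and *Uba6*, the second activating enzyme, had the smallest p (-0.33, SE 0.11, adjusted p = 0.12 with limma). Antigen processing and interferon response had 1 of 11 called higher, against 2.90% of all genes. It was the peptide transporter *Tap1*, at 1.57 to 2.08 FPKM in CrT-/y and 0.992 to 1.39 FPKM in CrT+/y animals (0.59, SE 0.16, adjusted p = 0.072 with limma). With all 7 animals, 1 of the 45 tested genes of the 5 lists (2.22%) was called higher and 3 (6.67%) lower, against 2.90% and 7.25% of all genes. Without CrT+/y replicate 3, 7 (15.6%) were called higher and 13 (28.9%) lower, against 10.3% and 18.4% of all genes.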

How the data were processed

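RNA-seq of cerebral cortex from 4 CrT-/y and 3 CrT+/y mice was analysed, with groups and replicate numbers taken from the sample labels. The authors aligned the reads to mm10 with the Tuxedo protocol (the submitters' processing notes name Bowtie and Cuffnorm), kept unique alignments to known exons or junctions with up to 2 mismatches, and deposited FPKM per gene and animal, which are scaled to exon length and mapped reads. Such values give no read totals, so no interval here rests on depth. FPKM do not show whether strand was used in counting.

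For each gene with a mean of at least 1 FPKM, log2(FPKM + 0.1) was fitted on genotype with limma (version 3.58.1, R 4.3.3), with a variance trend and Benjamini-Hochberg adjustment over 12988 genes, and called at an adjusted p under 0.1, the limit the study's methods give. The added 0.1 shrinks the fold changes of the weakest genes. Each p measures the spread between these animals. Checked on simulated data made from these animals (12988 genes, 200 changed), the fit recovered 26.5% of genes at a log2 change of 0.3, 89.0% at 0.6 and 100% at 1. Positions, exons and lengths come from GENCODE release M21 (GRCm38), in which 23310 of 24346 symbols were found under their current name and 665 through a synonym.

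Given with values in every animal were the called proteasome genes, those without overlap, the 2 of smallest p and those of highest and lowest level in each role. In the pathway lists, called genes or the one of smallest p were named, with means, ranges or the fold change alone. The other genes given with values were chosen after these were seen. The proteasome genes, lists, tests and motifs were chosen with earlier results of these data known. The settings tried instead were 1 or 0.01 added to FPKM; all genes, or those averaging 0.1 or 5 FPKM; scaling by quantiles, by the upper quartile or by the median; lowess removal of the transcript length trend (span 0.5); no variance trend; limma array weights; the replicate number as a block, alone or together with the length correction, and each animal left out. Leaving out CrT+/y replicate 3 together with the length correction was added after the data were seen. Figures and tables used Python 3.11.15, pandas 2.3.3, numpy 2.4.6, scipy 1.17.1 and matplotlib 3.10.9.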

Additional observations from a re-analysis of the deposited data

Results flagged for a closer look

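In 2 of the 47 tested proteasome genes, the highest of the 4 CrT-/y animals stood off from the other 3 by more than Dixon's 95% limit for 4 samples, which chance passes in about 1 of 20 groups. *Psma7*, an alpha ring subunit, was at 81.6 FPKM in CrT-/y replicate 1 and at 77.3 to 78.0 FPKM in the other 3. *Psmb6*, the caspase-like site of the beta ring, was at 72.9 FPKM in CrT-/y replicate 3 and at 71.2 to 71.5 FPKM in the other 3. Neither gene was called.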

How the results depend on the processing

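Over all genes, the count of calls was 1318. It was 730 with no filter on low values, 576 with a replicate block, 453 with the replicate block and the length trend taken out, between 64 (CrT-/y replicate 1) and 3736 (CrT+/y replicate 3) with 1 animal left out, and 3253 without CrT+/y replicate 3 and with the length trend taken out. The split of calls, 377 higher and 941 lower, became 741 and 463 after upper quartile scaling, 528 and 555 after quantile normalization and 490 and 527 after median centring. It was 602 and 1295 with array weights, 166 and 410 with the replicate block, and 179 and 274 with block and length correction. The split was 566 and 653 with the length trend alone taken out, and 1570 and 1683 when CrT+/y replicate 3 was also left out. With no filter it was 206 and 524, with a mean of at least 0.1 FPKM 342 and 795, and with no variance trend 300 and 625. With 1 animal left out it ran from 11 to 1342 higher and from 53 to 2394 lower. Of proteasome genes, 2 higher and 2 lower became 4 and 1 after upper quartile scaling, 3 and 1 after quantile normalization or median centring, 1 and 2 with the length trend taken out, 5 and 2 with array weights, 1 and 0 with the replicate block with or without the length correction, 2 and 1 with no filter, with a mean of at least 0.1 FPKM or with no variance trend, and 7 and 8 without CrT+/y replicate 3 and with the length trend taken out. With 1 animal left out they ran from 0 to 15 higher and from 0 to 7 lower. Pathway genes called, 1 higher and 3 lower, ran from 0 to 7 and from 0 to 13 with 1 animal left out. Their higher count was 0 with no filter or a mean of at least 5 FPKM and 3 after quantile normalization, upper quartile scaling or array weights. Their lower count was 1 with the length trend taken out or with the replicate block with or without it, and 6 with array weights. Without CrT+/y replicate 3 and with the length trend taken out they were 7 and 8.

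The median log2 fold change of proteasome genes, 0.06, was 0.12 after quantile normalization and 0.12 after upper quartile scaling, against -0.0023 and 0.03 for all genes, and ran from 0.00031 (CrT+/y replicate 2) to 0.081 (CrT+/y replicate 3) with 1 animal left out. With the length trend taken out it was 0.04, against 0.0016 for all genes. *Psmd9* turned from -0.04 to 0.025 after upper quartile scaling, 0.00015 after median centring, 0.027 with CrT-/y replicate 1 left out, 0.00088 with CrT-/y replicate 3 left out, 0.0059 with CrT+/y replicate 3 left out and 0.036 when the length trend was then also taken out, and ran down to -0.096 with CrT-/y replicate 2 left out. The 6 turned values had adjusted p-values of at least 0.85 in limma. *Slc6a8* kept its call under all 21 alternatives, from -1.10 to -0.94. The causes of these shifts were not tested. The replicate numbers share only a number: correlations of deviations between animals of the same number were -0.08, 0.05 and -0.05, not every animal correlated best with its own number, and no pairing was assumed. In the simulated data, where 200 of 12988 genes were changed, 26.5% of changes of 0.3 on the log2 scale were recovered. In these animals 1318 genes were called, *Psme1* at 0.25 among them, so that share may not hold here.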
